A study of Mus musculus with 18 samples.

Results

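Cytosolic ribosomal proteins build the small (40S) and large (60S) subunits of the ribosome that translates nuclear mRNA. The 83 genes described here, of 53090 in the count table, are the protein-coding genes with a GENCODE M21 symbol of the form Rpl or Rps plus a number, together with Rpsa, Rplp0, Rplp1 and Rplp2 and without the S6 kinases. They divide into 32 small subunit and 51 large subunit genes, and 6 of them (Rpl22l1, Rps27l, Rpl39l, Rpl3l, Rpl10l and Rpl7l1) are paralogs named after another member. The libraries were made from total RNA of mouse pancreatic beta cells. Islets were kept in culture overnight, dispersed, gated on forward scatter and sorted on the cells' own fluorescence. LIRKO mice lack the insulin receptor in the liver, and Ctrl mice are their controls. Each genotype was on chow or on HFD, an abbreviation that the labels do not spell out and that is read here as high-fat diet. The Ctrl genotype had 6 chow and 5 HFD libraries, and the LIRKO genotype had 4 chow and 3 HFD libraries, 18 in all. The labels give no Cre driver, sex, age, batch or animal of origin, so the spread that p-values are measured against is that of libraries and may be partly technical.

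Ribosomal protein genes are among the most strongly transcribed genes of most cells, and their products are needed in near-equal amounts because each ribosome holds 1 copy of nearly every one. Many of their mRNAs begin with a run of pyrimidines, the 5' terminal oligopyrimidine (TOP) tract, through which the kinase mTORC1, itself activated by insulin and amino acids, controls their translation. In the beta cell, ribosomes are the site of the large output of preproinsulin. RNA counts report transcript levels and do not report translation.

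The libraries held 19490235 to 51714775 counts, of which 411598 to 1027377 fell on the 83 genes. Ctrl HFD replicates 1 and 2 stood apart before any comparison. They had the smallest totals, 1.37% and 1.06% of their counts on the nuclear RNA Malat1 (0.0866% to 0.6003% in the other 16), and 95.7% and 95.6% of counts on protein-coding genes (97.1% to 98.8% in the other 16). LIRKO chow replicates 1 and 2, and 3 and 4, were close pairs over all genes, with a chi-square per degree of freedom between their counts of 4.92 and 6.21. Sampling noise gives about 1, and every other pair within a group had at least 25.8. Over the members alone the 2 pairs had 10.7 and 3.79, and the other LIRKO chow pairs 6.43 to 13.6. By these genes replicates 1 and 2 were thus no closer than other pairs of the group. All 18 libraries were kept. With the close pairs summed to 1 library each, genes called on chow between genotypes numbered 193 in place of 993, and genes called with diet in LIRKO 7 in place of 392. Leaving aside cell type markers and RNA quality genes, none of the 23 calls of named genes given below held in that setting, where their adjusted p-values by edgeR ran from 0.0551 to 0.336. The insulin gene Ins2, a marker of beta cells, was at 59881 CPM (the usual depth-scaled count unit, here with TMM scaling of library sizes) or more in every library, while the beta cell transcription factor genes Mafa and Pdx1 ran from 4.36 to 108 and from 60.4 to 176 CPM. Summed markers ranged from 499 to 4430 CPM for alpha cells and 307 to 2820 CPM for delta and PP cells. Duct markers summed to 1050 to 1618 CPM, among them Krt7 at 692 to 1268 CPM. The sums were 7.56 to 565 CPM for acinar cells and 18 to 308 CPM for endothelial cells. They were 98.3 to 257 CPM for macrophages and 1.32 to 75.2 CPM for fibroblasts and stellate cells. The delta cell transcription factor gene Hhex was listed at 0 in every library, while the delta cell hormone gene Sst was at 98.3 to 765 CPM. In sorted cell pools, fewer cells of a type and less RNA per cell cannot be told apart.

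The sequence around the transcription start is shown for the members on which the results below turn, because the start carries the TOP tract. The windows have 30 bases, run 5' to 3' on the transcribed strand and lie around the start in RefSeq (GRCm38.p6). Capitals mark the longest pyrimidine run that begins or ends within 3 bases of the start or spans it. For Rpl22 and Rps27l, which have 2 listed starts, the upstream start is shown.
Rps27, chr3:90213634-90213663, minus strand: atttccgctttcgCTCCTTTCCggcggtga
Rps27l, chr9:66946071-66946100, plus strand: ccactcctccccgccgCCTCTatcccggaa
Rpl22, chr4:152324421-152324450, plus strand: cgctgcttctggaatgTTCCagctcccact
Rpl22l1, chr3:28805493-28805522, plus strand: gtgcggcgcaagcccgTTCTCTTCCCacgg
Rpl7a, chr2:26910792-26910821, plus strand: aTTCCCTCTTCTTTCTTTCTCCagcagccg
Rpl7l1, chr17:46782642-46782671, minus strand: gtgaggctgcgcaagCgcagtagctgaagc
Rpl13a, chr7:45128731-45128760, minus strand: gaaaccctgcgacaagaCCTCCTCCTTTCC
Rplp0, chr5:115559452-115559481, plus strand: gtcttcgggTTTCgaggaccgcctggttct
The paralog Rps27l has a run of 5 pyrimidines where Rps27 has 9, and Rpl22l1 has 10 where Rpl22 has 4. The run is 21 bases long in Rpl7a, and in Rpl7l1 it is 1 base. In the Rpl13a window the run of 14 continues past the last base.

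Of the 63 members matched in the RefSeq promoter table by symbol, 32 (50.8%) had a run of at least 5 pyrimidines at the start, against 29.4% of 16478 protein-coding genes in both tables. A run of at least 7 was found in 42.9% of members and 13.4% of coding genes. The strict form, a C at the annotated start base followed by at least 4 pyrimidines (C or T), was found in 20.6% of members and 2.72% of coding genes. Only the transcribed strand was searched, and the runs of these 3 definitions overlap. RefSeq starts can lie some bases from the start used in a cell, so a window without a run says only that these letters are not there.

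Between 1.25% and 3.64% of a library's counts fell on the 83 genes. In Ctrl chow the share was 1.32% at the lowest, 1.99% at the median and 2.34% at the highest. In Ctrl HFD it was 3.32%, 3.64%, 1.37%, 1.44% and 1.75%, so replicates 1 and 2 held the highest shares of the series and the other 3 lay within the Ctrl chow range. In LIRKO chow it was 1.56%, 1.601%, 1.39% and 1.25%, and in LIRKO HFD 2.42%, 1.99% and 1.45%. The LIRKO chow libraries were at the low end and overlapped the lowest Ctrl chow library. Counts of large subunit genes exceeded those of small subunit genes 1.11 to 1.30 times. The 285 genes named as ribosomal protein pseudogenes (symbols with -ps) together held 0.58% to 0.95% as many counts as the members. This value was 0.95% and 0.92% in Ctrl HFD replicates 1 and 2 and at most 0.80% in the other 16 libraries.

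**Figure D1:**
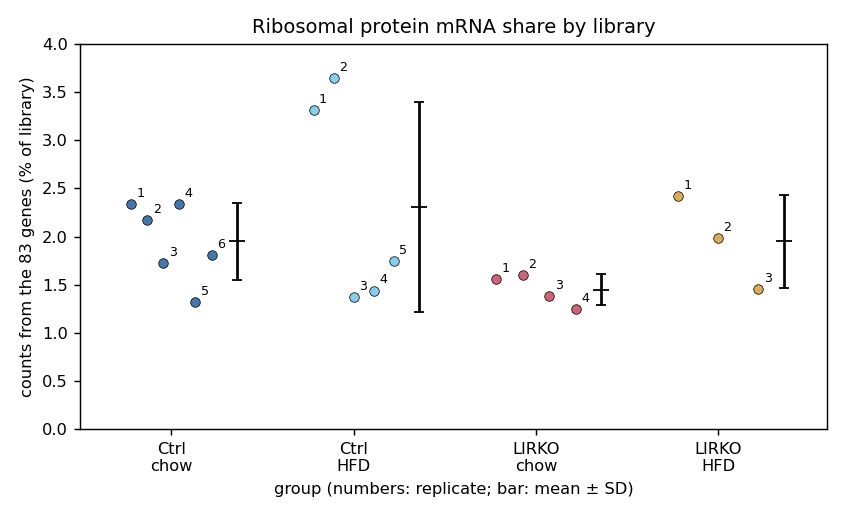
Each point is 1 library, the y axis is the percent of its counts on the 83 ribosomal protein genes, numbers are replicates and bars are the group mean ± SD. Ctrl HFD replicates 1 and 2, at 3.32% and 3.64%, lie above all 16 others, which run from 1.25% to 2.42%.

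Apart from 3 paralogs, every member was well expressed. Mean levels of the other 80 members over the 18 libraries ran from 15.2 CPM for Rpl24, which encodes a large subunit protein at the interface with the small subunit, to 1129 CPM for Rpl4. Per kilobase of annotated transcript, Rps14 led at 1523 CPM per kb, followed by Rps27 at 840 and Rps21 at 747. The lowest of the 80 per kilobase were Rpl24 (22.5), Rps15a (29.3), Rpl7l1 (32.4) and Rpl13a (35.3 CPM per kb). With the longest in place of the shortest principal transcript, Rps14 stood at 1363 and Rps15a at 29.0 CPM per kb, and the order of these genes held. The annotated principal transcript of Rps15a is 5130 bases long, and that of Rps20 3706. The exons of Rpl13a overlap those of other genes on the same strand over 35.4% of their length, and how reads in such overlaps were counted is not given in the sources used here. Rpl10l, a retrocopy known from the testis, had 2 reads in all 18 libraries, and Rpl39l, also known from male germ cells, had 6. Neither was tested. Rpl3l, the striated muscle paralog of Rpl3, averaged 0.191 CPM, where Rpl3 ran from 211 to 585 CPM.

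Many members share sequence with other genes, mostly processed pseudogenes. In 52 of 83, at least 50% of the 31-base words of the transcript also occur in the transcripts of another gene, and for Rps27 this share is 98.7%. How reads with several matches were counted is not given in the sources used here. The median log2 fold changes of the members below and above that 50% line differed by at most 0.03 in each of the 5 comparisons below.

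Chow-fed LIRKO libraries had on average lower levels of nearly all ribosomal protein mRNAs than chow-fed Ctrl libraries. The amounts did not pass the test for any gene, with log2 fold changes from -0.68 to 0.69. The comparison sets the 2 genotypes side by side on the ordinary diet. The edgeR quasi-likelihood test called 0 of 81 members at an adjusted p under 0.05, where it called 5.15% of the 19284 genes tested. The median log2 fold change of the members was -0.47, against -0.02 for all genes tested. It was -0.47 over the 32 small subunit genes and -0.50 over the 49 tested large subunit genes. The fold change was below 0 for 78 members, where 52.6% of all genes were below 0. Levels of the members rose and fell together across libraries (median pairwise Pearson correlation of log2 CPM 0.95 with group means removed). Counts of members above or below 0 or past an unadjusted line, here and in later comparisons, are therefore not counts of independent results. At an unadjusted p under 0.05 there were 6 members (0 with the LIRKO chow pairs summed), with 18.8% of all genes past that line, and DESeq2 and limma voom each called 0 members at an adjusted p under 0.05. Beta cell markers were also lower, with 9 of 10 below 0, a median of -0.57 and 1 called, as were 7 of 8 macrophage markers, with a median of -0.61 and 1 called, and all 4 tested delta and PP cell markers, with a median of -1.53 and Pyy called. The alpha cell markers Gc and Ttr and the duct marker Spp1 were called higher, but their lists were divided. Of 6 alpha cell markers 3 were above 0 and 3 below (median 0.14). Of 5 tested duct markers 3 were above 0 and 2 below (median 0.08). Of 5 nuclear and intron-rich RNAs 4 were above 0, with a median of 0.58. The part of any of these markers and RNAs in the members' values was not tested.

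Rpl13a, which encodes a large subunit protein also known from the GAIT translational control complex (ENSMUSG00000074129, chr7:45125558-45128761, minus strand), was the only member whose groups stood apart. In Ctrl chow it lay between 33.0 and 48.3 CPM with a median of 46.7. In LIRKO chow it was at 31.5, 31.2, 27.6 and 25.6 CPM. The groups did not overlap, as for 5.21% of all genes in the lower direction. Its log2 fold change was -0.57 (SE 0.21), with an adjusted p of 0.14 by edgeR. With Ctrl HFD replicates 1 and 2 left out of the shared fit it was -0.53 and passed at an adjusted p of 0.0115, the only member to do so, where 9.32% of all genes passed. In that fit 42 members had an unadjusted p under 0.05 (25.0% of all genes). In a fit of the 2 chow groups alone Rpl13a and Rpl30, a large subunit protein gene, passed. The share of all genes that passed in that fit is not given here, so these calls cannot be set against it.

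Rpl7a, a large subunit gene, had the smallest adjusted p of the members, 0.13 by edgeR, at a log2 fold change of -0.45 (SE 0.16). The 3 lowest fold changes did not pass either. They were Rpl31 (log2 fold change -0.68, SE 0.46), Rpl30 (-0.65, SE 0.29) and Rpl37 (-0.64, SE 0.36), which encode small proteins of the large subunit. Rps6, the substrate of the S6 kinases, was at 128 to 234 CPM in Ctrl chow and at 143, 159, 129 and 111 CPM in LIRKO chow, a log2 fold change of -0.47 (SE 0.24, adjusted p = 0.30 by edgeR). These ranges overlapped. Rps19, the gene most often mutated in Diamond-Blackfan anaemia, had -0.59 (SE 0.39). Rpl5 and Rpl11, whose free proteins bind and restrain the p53 ligase Mdm2, had -0.56 (SE 0.33) and -0.56 (SE 0.34). Mdm2 itself, a p53 target, was higher by 0.44 (SE 0.11, adjusted p = 0.0317 by edgeR). The call was lost in 7 of the fits with single libraries left out. Of 14 listed p53 response genes it was the only 1 called in this comparison, where 5.15% of all genes were called. Of those 14 genes, 11 were above 0 and 3 below. A link between Mdm2 and the levels of Rpl5 and Rpl11 was not tested. Rps3, a small subunit protein at the mRNA entry channel, had -0.43 (SE 0.24), and Rpl4, the member with the most reads, -0.30 (SE 0.23).

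Members of the other set examples followed the same line, Rpl39 at -0.62 (SE 0.34), Rpl22l1 at -0.55 (SE 0.21), Rpl22 at -0.45 (SE 0.24) and Rps14 at -0.42 (SE 0.34). Rpl7l1 (-0.23, SE 0.13) and Rpl10, a late-joining protein of the large subunit (-0.23, SE 0.22), were the least low. Of the 27 tested genes of that set, 24 had a fold change below 0, and none passed.

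Only 3 members had a fold change above 0 on chow, Rpl3l near the detection limit, Rps27l and Rplp0. Rplp0 encodes the base of the ribosomal stalk, which recruits the translational GTPases, and its level is widely used to normalise qPCR. It lay between 336 and 580 CPM in Ctrl chow, with a median of 545. In LIRKO chow it was at 565, 591, 505 and 464 CPM, inside or just above that range. The log2 fold change was 0.10 (SE 0.23, adjusted p = 0.86 by edgeR). The other stalk genes, Rplp1 and Rplp2, were at 173 to 379 and 124.7 to 235.0 CPM in Ctrl chow and at 181 to 253 and 121 to 166 CPM in LIRKO chow. As a share of all member counts, Rplp0 took 2.14% to 2.72% in Ctrl chow and 3.33% to 3.63% in LIRKO chow. In Ctrl HFD its share was 1.74% to 2.74% and in LIRKO HFD 2.25%, 2.87% and 3.01%. A gene that holds its level gains share where the other members are lower. For how many other members the shares stood apart between these groups is not given here. The Rplp0 shares were examined after the fold changes were seen and are given with no test.

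**Figure D2:**
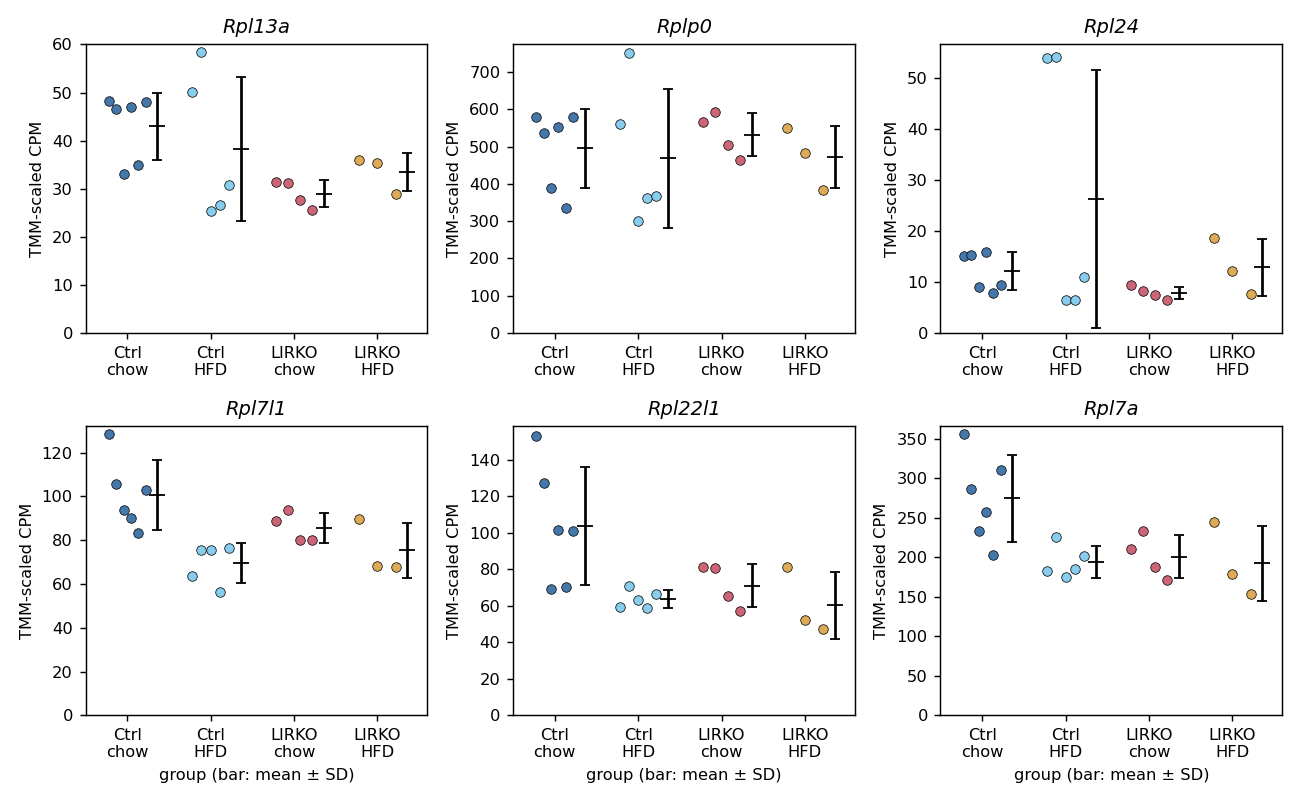
Points are single libraries, y axes are TMM-scaled CPM from 0, and bars are the group mean ± SD. Rpl13a is lower in all 4 LIRKO chow libraries (25.6 to 31.5) than in Ctrl chow (33.0 to 48.3), and Rpl24 is high in Ctrl HFD replicates 1 and 2 (53.9 and 54.0).

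On HFD, the genotype comparison depended on Ctrl HFD replicates 1 and 2. With all libraries, 0 of 81 members passed by edgeR, where 0.508% of all genes did, and 0 by DESeq2 and by limma voom. At an unadjusted p under 0.05 there were also 0 members (7.81% of all genes). The median log2 fold change was -0.32, against -0.04 for all genes, with 77 members below 0 (54.6% of all genes). Without those 2 libraries the median was 0.38 with 79 members above 0, 4 at an unadjusted p under 0.05 (13.6% of all genes), and again 0 passed (1.02% of all genes did). The genes with the lowest fold changes were Rpl24 (-1.03, SE 0.61), Rpl41 (-0.81, SE 0.50), which encodes a very short basic peptide of the large subunit, and Rpl36 (-0.77, SE 0.52). With those libraries left out they stood at 0.69, 0.42 and 0.48. The highest were Rps27l (0.14, SE 0.32), Rpl7l1 (0.12, SE 0.15) and Rps14 (0.04, SE 0.38), with Rplp0 next at 0.01 (SE 0.26). Each of these 4 changed sign under at least 1 other setting.

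In Ctrl mice on HFD, edgeR called 3 members lower than on chow and none higher: Rpl7l1, Rpl22l1 and Rpl7a. That is 3 of 81 members called, where 9.93% of all genes were called and 4.35% were called lower. Members were thus called no more often than genes at large, and the calls did not hold in several other fits given below. Rpl7l1 encodes a protein related to Rpl7 that is known from pre-ribosomes. It was at 83.2 to 129 CPM in Ctrl chow, with a median of 98.3, and at 63.7, 75.3, 75.4, 56.2 and 76.7 CPM in Ctrl HFD. Every HFD library lay below every chow library, as for 2.13% of all genes in that direction and for no other member. Its log2 fold change was -0.54 (SE 0.13, adjusted p = 0.0315 by edgeR).

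Rpl22l1, the paralog of Rpl22 (ENSMUSG00000039221, chr3:28805436-28807424, plus strand), was at 69.4 to 153 CPM in Ctrl chow, with a median of 101. In Ctrl HFD it was at 59.6, 70.9, 63.2, 59.0 and 66.7 CPM, so that 1 HFD library reached into the chow range. The log2 fold change was -0.70 (SE 0.20, adjusted p = 0.0402 by edgeR). Rpl7a, a large subunit gene whose introns carry small nucleolar RNAs, was at 203 to 355 CPM on chow and at 182, 226, 175, 185 and 202 CPM on HFD. Its groups overlapped, and its log2 fold change was -0.50 (SE 0.15, adjusted p = 0.0484 by edgeR). Without Ctrl HFD replicates 1 and 2 the fold changes of the 3 genes were -0.49, -0.67 and -0.50, and the adjusted p-values 0.147, 0.173 and 0.172. In that fit 0.18% of all genes passed. The count of called members was also 0 when Ctrl chow replicate 1, 2 or 6 or Ctrl HFD replicate 1 or 2 was left out singly, and 1 without LIRKO chow replicate 3. Calls over all genes fell as well, from 1075 higher and 839 lower with all libraries. In the fits with 0 members called they were 40 to 85 higher and 29 to 74 lower. Without LIRKO chow replicate 3 they were 494 and 361.

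The other members in Ctrl mice divided with the libraries. With all libraries the median log2 fold change was 0.07, against 0.04 for all genes, with 51 members above 0 where 53.1% of all genes were. At an unadjusted p under 0.05 there were 5 members, where 34.2% of all genes passed that line. Leaving out Ctrl HFD replicates 1 and 2 gave -0.57 with 1 member above 0. In that fit 60 members had an unadjusted p under 0.05 (20.6% of all genes), none of them higher, and 0 passed after adjustment, with a smallest adjusted p of 0.0855 by edgeR. With 1 library left out, the median was -0.11 without Ctrl HFD replicate 1, -0.16 without replicate 2 and -0.02 without Ctrl chow replicate 5. Rpl24 shows the split, and its level depends on counting, since its exons overlap others on the same strand over 47.0% of their length and 82.2% of its 31-base words occur elsewhere. It was at 7.80 to 15.96 CPM in Ctrl chow, at 53.9 and 54.0 CPM in Ctrl HFD replicates 1 and 2, and at 6.39, 6.42 and 11.0 CPM in the other 3. Its log2 fold change was 1.12 (SE 0.49, adjusted p = 0.118 by edgeR) with those 2 libraries and -0.56 without them. Rpl36 and Rpl41, the next highest, had 0.69 (SE 0.41) and 0.67 (SE 0.40) with them and -0.52 and -0.51 without. The HFD libraries of Ctrl mice also had more endothelial marker RNA, 152 to 308 CPM against 38.5 to 198 CPM on chow, with 2 of 8 markers called higher (Esam and Egfl7). All 7 fibroblast markers (median 1.86) and all 6 alpha cell markers (median 0.84, Gc called) were above 0. Of 10 beta cell markers 9 were below 0 (median -0.47), with G6pc2, Mafa and Pdx1 called, and all 9 tested acinar markers were below 0 (median -0.81). Of the 5 nuclear and intron-rich RNAs listed, 3 were called higher, among them Malat1. The part of any of these in the fold changes of the members was not tested.

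**Figure D3:**
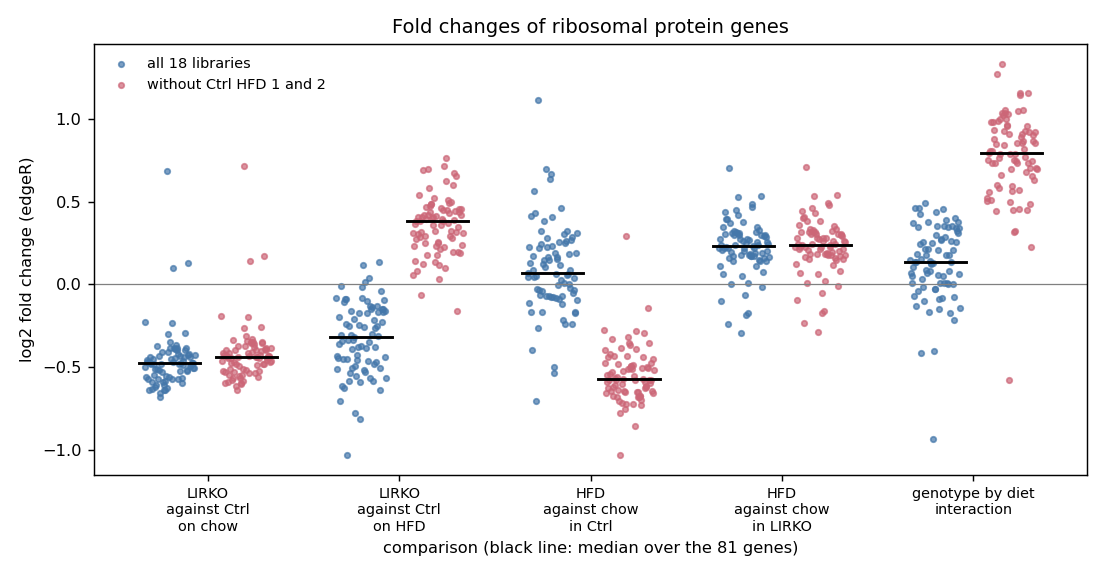
Each point is 1 tested member, the y axis is the edgeR log2 fold change and black lines are medians. Blue is the fit to all 18 libraries and red the fit without Ctrl HFD replicates 1 and 2, where the median moved from -0.32 to 0.38 in LIRKO against Ctrl on HFD and from 0.07 to -0.57 in HFD against chow in Ctrl.

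In LIRKO mice on HFD, most members were higher than on chow by a small amount that did not pass. The test called 0 of 81 members by edgeR, where it called 2.03% of all genes, and 0 had an unadjusted p under 0.05 (16.5% of all genes). DESeq2 and limma voom also called 0. The median log2 fold change was 0.23, against 0.03 for all genes, with 74 members above 0 (52.9% of all genes). Without LIRKO HFD replicate 1, which had the highest member share of its group, the median was -0.05. The highest members were Rpl24 (0.70, SE 0.61), Rps27 (0.53, SE 0.44) and Rpl36 (0.53, SE 0.52). The lowest with a mean log2 CPM of at least 2 were Rpl22l1 (-0.24, SE 0.25), Rpl7l1 (-0.18, SE 0.16) and Rplp0 (-0.17, SE 0.27). All 8 endothelial and all 8 macrophage markers had fold changes above 0 here, with 1 and 2 of them called, as did all 7 fibroblast markers, and 8 of 10 beta cell markers were below 0, with Mafa called. Their part in the members' values was not tested.

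The interaction, which tests whether the genotype fold change depended on diet, called 0 of 81 members and 0.00519% of all genes by edgeR. No member had an unadjusted p under 0.05 (5.52% of all genes), and DESeq2 and limma voom called 0 members. The median was 0.13, with 63 members above 0 (47.5% of all genes). It was -0.15 without LIRKO HFD replicate 1 and -0.02 without Ctrl HFD replicate 3. Leaving out Ctrl HFD replicates 1 and 2 gave 0.79, with 80 members above 0 and 55 at an unadjusted p under 0.05 (14.9% of all genes). None of them passed after adjustment (0.0422% of all genes did), the smallest adjusted p being 0.145 by edgeR.

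Ratios between a paralog and its parent gene do not depend on library scaling and cancel only changes that both genes share. A shift of the family that the paralog does not follow stays in the ratio. With the mean of the other members, the correlation of log2 CPM over libraries was 0.81 for Rps27l and 0.92 for Rps27. It was 0.52 for Rpl22l1 and 0.96 for Rpl22. Rps27l is a p53-responsive relative of Rps27, and both proteins can take the same place in the small subunit. In Ctrl chow the log2 ratio of Rps27l to Rps27 counts was -1.76 to -1.48. In LIRKO chow it was -0.87, -0.87, -1.11 and -0.99, so that every LIRKO library was above every Ctrl library. The means were -1.60 ± 0.11 (SD, n = 6) and -0.96 ± 0.11 (n = 4), a difference of 0.64 with a two-sided exact permutation p of 0.00476, the smallest that 210 splits allow, and 0.0381 adjusted over the 8 ratio tests made. With the close LIRKO chow pairs summed, which leaves 2 against 6, the difference was 0.63 and the adjusted exact p 0.143. So few splits remain there that the test could hardly pass after adjustment, and its result does not decide the matter. Leaving out any 1 of 9 of the 10 chow libraries (all but Ctrl chow replicate 3) kept the difference between 0.61 and 0.69 and raised the adjusted exact permutation p to 0.052 to 0.0635, since fewer splits remain.

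On its own, neither gene of the pair passed on chow. Rps27 was at 178 to 379 CPM in Ctrl chow and at 225, 239, 196 and 173 CPM in LIRKO chow, and its log2 fold change was -0.52 (SE 0.38). Rps27l was at 61.1 to 136 and at 123, 131, 90.7 and 87.0 CPM, with 0.13 (SE 0.28). In LIRKO HFD the log2 ratio was -1.58, -1.47 and -1.36, below the 4 LIRKO chow values by 0.51 on average. The exact permutation p was 0.0286, the smallest that 3 against 4 libraries allow, and 0.0571 adjusted. Between genotypes on HFD the ratio differed by 0.16 (exact permutation p = 0.589), and by -0.09 without Ctrl HFD replicates 1 and 2. Whether the genotype difference itself changed with diet was not tested. The Ctrl HFD values were -2.17, -1.83, -1.47, -0.95 and -1.72, the widest spread of the 4 groups. As 98.7% of the 31-base words of Rps27 occur in other genes, its level depends on how shared reads were counted.

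Rpl22l1 and Rpl22 encode RNA-binding proteins of the large subunit, and Rpl22 is known to restrain the expression of Rpl22l1. The log2 ratio of Rpl22l1 to Rpl22 was -1.47 to -0.84 in Ctrl chow and -2.21, -2.20, -1.28, -1.21 and -1.56 in Ctrl HFD. The difference was -0.64 (exact permutation p = 0.013, 0.0519 adjusted), and the groups overlapped. Leaving out Ctrl chow replicate 3 or Ctrl HFD replicate 3 or 4 singly gave -0.73, -0.75 and -0.77, with adjusted exact permutation p-values of 0.0317, 0.0381 and 0.0381. Without Ctrl HFD replicates 1 and 2 it was -0.30, with an exact permutation p of 0.0952. In LIRKO mice the ratio was -1.05, -1.12, -1.12 and -1.19 on chow and -1.79, -1.72 and -1.72 on HFD. These groups did not overlap, and the difference of -0.62 had an exact permutation p of 0.0286, the smallest possible, and 0.0571 adjusted. On its own, Rpl22l1 did not pass with diet in LIRKO, with log2 fold changes of -0.52 to -0.095 when single libraries were left out. The median log2 fold change of all members there was 0.23. How far each gene of the pair moved the ratio was not tested. The ratio differed little between genotypes, by -0.07 on chow (exact permutation p = 0.595) and -0.05 on HFD (p = 0.75).

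**Figure D4:**
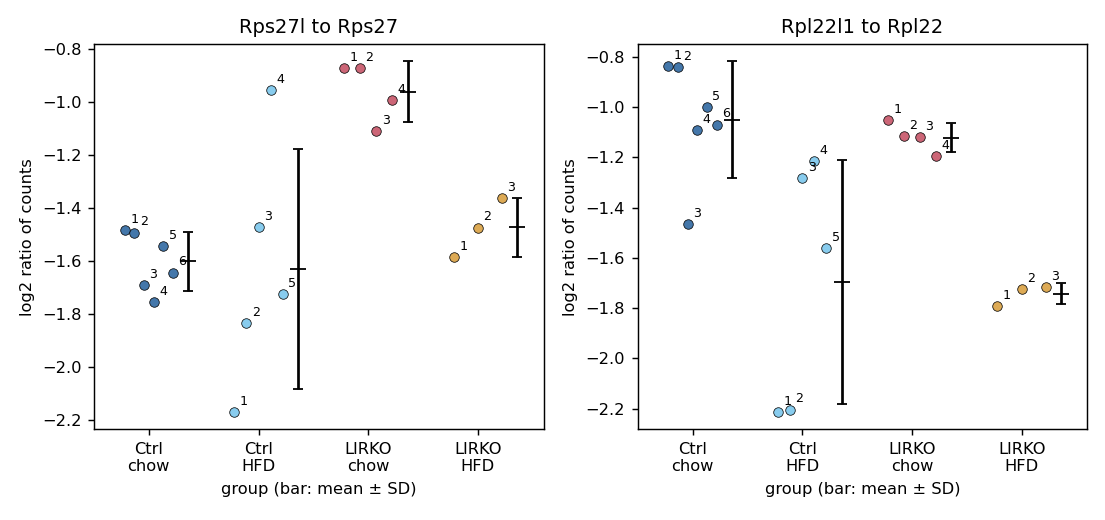
Points are single libraries with their replicate number, the y axis is the log2 ratio of counts of the paralog to its parent gene, and bars are the group mean ± SD. The 4 LIRKO chow libraries lie above all 6 Ctrl chow libraries for Rps27l to Rps27, and the 3 LIRKO HFD libraries lie below the 4 LIRKO chow libraries for both ratios.

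Within the family the proportions were steady in most libraries. Across the 18 libraries the median Pearson correlation between the log2 CPM of 2 members was 0.93, and it was 0.95 with the group means removed. These correlations share the scaling of each library and are a description. The members that followed the mean of the others least were Rpl7l1 (r = 0.32), Rpl22l1 (0.52) and Rpl7a (0.59), the 3 genes called in Ctrl mice on HFD, and without Ctrl HFD replicates 1 and 2 these values were 0.77, 0.85 and 0.90. When each gene was taken as a share of all member counts, 13 of 80 members in Ctrl HFD replicate 1, 10 in replicate 2 and 5 in replicate 4 lay more than 1.5-fold from their median share over the libraries. No member did so in the other 15 libraries. The 1.5-fold line was set after the values were seen.

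The members that departed were not the same in these libraries. In Ctrl HFD replicates 1 and 2 the share of Rpl24 was highest (log2 deviations of 1.54 and 1.36) and that of Rpl7l1 lowest (-1.27 and -1.22). In Ctrl HFD replicate 4, Rpl31 was lowest (-1.59) and Rps29, a zinc-binding protein gene of the small subunit, highest (1.11). Rpl31 was at 18.3 CPM in that library and at 48.9 to 196 CPM in the other 17. Rps4x, the X-linked small subunit gene, was the steadiest, with a share of 2.15% to 2.46% in every library, a 1.15-fold range. Across members, the rank correlation of the deviations with transcript length, GC content or the share of 31-base words found elsewhere stayed between -0.34 and 0.34 in each library. In Ctrl HFD replicates 1 and 2 it was 0.30 and 0.34 for GC content and -0.27 and -0.22 for length. Ctrl chow replicate 4 also had 0.30 for GC content, and LIRKO HFD replicate 1 had -0.34 for length.

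**Figure D5:**
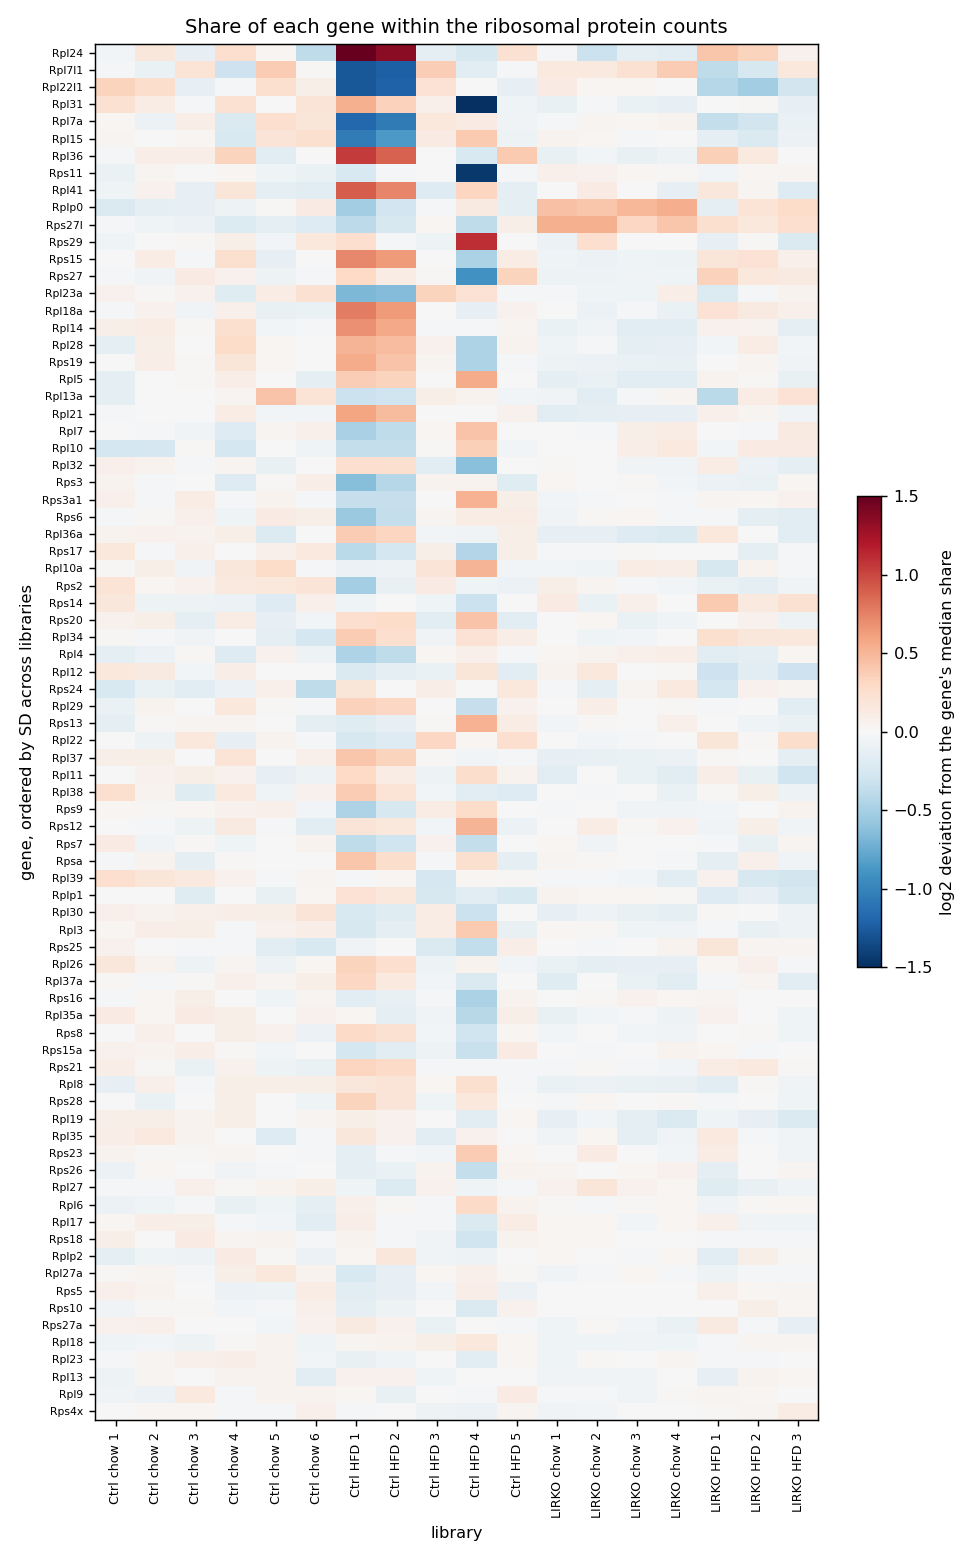
Rows are the 80 members above 1 CPM, columns are the 18 libraries, and colour is the log2 deviation of the gene's share of member counts from its median share (red higher, blue lower). Strong colours lie in Ctrl HFD replicates 1, 2 and 4, and Rplp0 and Rps27l are red in the 4 LIRKO chow libraries.

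Ribosomal proteins that the symbol rule leaves out were also examined. Those given here are Fau, which encodes a fusion that releases a small subunit protein, Rack1, a scaffold on the small subunit, and the copies Rpl36al and Rps27rt. None of these 4 passed in any comparison by edgeR. On chow all 4 had a fold change below 0 in LIRKO, from -0.45 (SE 0.41) for Fau to -0.16 (SE 0.31) for Rpl36al.

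Of 47 tested ribosome biogenesis genes, 2 were lower in LIRKO on chow and none higher, where 5.15% of all genes were called, with a median log2 fold change of -0.13. They were Fbl, the rRNA methyltransferase fibrillarin (-0.48, SE 0.12, adjusted p = 0.0276 by edgeR), and Rrp9, a U3 snoRNP protein (-0.50, SE 0.10). In Ctrl mice on HFD 5 of 47 were lower and none higher (median -0.18), where 9.93% of all genes were called and 4.35% called lower, among them Fbl (-0.53, SE 0.12), the GTPase Gnl2 (-0.43, SE 0.10) and Pes1 of the PeBoW complex (-0.43, SE 0.11). Both comparisons use the same Ctrl chow libraries. Fbl was at 53.7 to 72.0 CPM in Ctrl chow, 39.9 to 50.6 CPM in LIRKO chow and 33.6 to 49.2 CPM in Ctrl HFD. Of 14 RNA polymerase I genes, Ubtf, which opens rDNA chromatin, was lower in LIRKO on chow (-0.41, SE 0.09) and the other 13 did not pass.

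Among 28 initiation factors 4 were lower in Ctrl mice on HFD and none higher, beside the same 4.35% of all genes called lower. They included Eif2s1, the alpha subunit of eIF2 (-0.67, SE 0.15), the cap-binding protein Eif4e (-0.64, SE 0.15) and Eif5a (-0.48, SE 0.14). None of the 28 passed in the other comparisons. Of 19 elongation and other TOP genes none passed in any comparison. Of 11 tested chaperones and importins of ribosomal proteins, 2 were lower in Ctrl mice on HFD (4.35% of all genes were), Tsr2, which escorts Rps26 (-0.43, SE 0.13), and Bccip (-0.45, SE 0.14). Without Ctrl HFD replicates 1 and 2 none of the genes named here from Ctrl mice on HFD passed.

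The lists that follow had 1 or 2 genes called in a comparison, where 5.15% of all genes were called between genotypes on chow, 0.508% on HFD, 9.93% with diet in Ctrl and 2.03% with diet in LIRKO. Of 17 tested mTORC1 and TOP regulators, Rps6kb1, an S6 kinase, was higher in LIRKO on chow (0.44, SE 0.13, adjusted p = 0.0494 by edgeR). Mycl, a Myc family gene, was lower in LIRKO mice on HFD (-2.22, SE 0.49). Of 14 p53 response genes, Phlda3 (0.94, SE 0.25) and Bbc3 (0.83, SE 0.23) were higher in Ctrl mice on HFD. On chow, Mdm2 was called higher in LIRKO, as given above. Of 13 tested ribosome rescue genes, Hbs1l, which splits stalled ribosomes with Pelo, was higher in LIRKO on chow (0.49, SE 0.09) and lower in LIRKO mice on HFD than on chow (-0.42, SE 0.11). Ascc2, part of a complex that acts on collided ribosomes, was lower in LIRKO mice on HFD than in LIRKO on chow (-0.58, SE 0.14) and than in Ctrl on HFD (-0.64, SE 0.13). These comparisons share libraries.

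The nuclear-encoded mitochondrial ribosomal proteins, which share the naming but not the ribosome, had a median log2 fold change of -0.35 in LIRKO on chow, with 1 of 77 called lower, and oxidative phosphorylation subunits had -0.45, with 0 of 74 called. Of all genes 5.15% were called in that comparison. The members' -0.47 in the same comparison was thus near that of a second abundant gene family. In other comparisons the medians lay further apart. With diet in Ctrl they were 0.07 for members, -0.15 for oxidative phosphorylation subunits and -0.13 for mitochondrial ribosomal proteins. Between genotypes on HFD they were -0.32, -0.13 and -0.15. The difference between the families was not tested.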

How the data were processed

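RNA-seq of sorted beta cells was deposited by the authors as 1 table of raw counts per Ensembl gene. Per the submitters' processing notes, STAR, featureCounts and GRCm38 were used; the sources used here give no versions, annotation release, strand setting or treatment of multiply matching reads. Of 53090 IDs, 52489 matched GENCODE M21. Groups follow the sample titles, and replicate numbers only name libraries. The test was edgeR 4.0.16 (R 4.3.3): filterByExpr (19284 genes kept), TMM, quasi-likelihood fit with 1 coefficient per group over 18 libraries, 5 contrasts, Benjamini-Hochberg adjustment within each, threshold 0.05, all two-sided. The test was also run on simulated counts drawn independently for each gene and library. Such counts cannot show how it deals with close library pairs, outlying libraries or genes that move together. Alternatives included DESeq2 1.42.0, limma 3.58.1 voom, other scalings and filters, and libraries left out. Paralog ratios (0.5 added to each count) were compared by exact permutation. Lengths are those of the shortest best-annotated principal transcript, a choice made after values were seen.

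Named members are those past the threshold (at most 10 per comparison), the 3 highest and 3 lowest fold changes per pairwise comparison with a mean log2 CPM of at least 2, and a set list of functional examples. Of 146 pairs of member and comparison under that rule, 37 (and 2 outside it) were carried through every alternative; they were picked after fold changes were seen. From each pathway list up to 3 passing genes were named. The members, lists and most alternatives, among them leaving out Ctrl HFD replicates 1 and 2, were chosen with earlier results of these data known. The pool shares, tract definitions, 50% line for 31-base words, the list of oxidative phosphorylation subunits and the setting without Ctrl HFD replicates 1, 2 and 4 were chosen after values were seen. A result on 1 further gene is not reported here.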

Additional observations from a re-analysis of the deposited data

Results flagged for a closer look

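Within each group of 4 or more libraries, the highest and lowest values were compared with the spread of the rest by Dixon's criterion, over 81 sets of values (member share, subunit ratio, shares of named members and paralog ratios). It marked 3 single values, where chance marks about 1 set in 20. Rpl30 took 1.56% of the member counts in Ctrl chow replicate 6, against 1.42% to 1.47% in the other 5. Rpl39 took 0.33% in Ctrl HFD replicate 3, against 0.384% to 0.399% in the other 4. Rps14 took 3.64% in Ctrl HFD replicate 4, against 4.35% to 4.59% in the other 4.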

How the results depend on the processing

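No paired analysis was possible because the labels give the libraries no replicate numbers, animals or batches that could pair them. Of 61 pairs of named gene and comparison, 23 were called, and 0 of these 23 kept the call under every alternative, while 26 of the 38 uncalled pairs kept their sign. Members called in Ctrl mice with diet numbered 3, but 0 without Ctrl HFD replicates 1 and 2 (also without 1, 2 and 4), with the LIRKO chow pairs summed or with only the 2 groups fitted, 1 with no filter, total counts or upper quartile scaling, and 0 to 3 with single libraries left out. Over all genes, 1075 were called higher and 839 lower with all libraries. These counts were 25 and 9 without replicates 1 and 2, and 0 and 0 without 1, 2 and 4. They were 65 and 49 with the pairs summed and 0 and 1 with only the 2 groups. With no filter they were 308 and 149, with total counts 2033 and 162, and with upper quartile scaling 1739 and 485. Between genotypes on chow, 1 was called without Ctrl HFD replicates 1 and 2 (or 1, 2 and 4) and 2 with only the 2 groups. Of all genes, 9.32% were called without replicates 1 and 2, and the shares in the other fits are not given here.

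Without Ctrl HFD replicates 1 and 2, and then without 1, 2 and 4, a setting added after seeing the data, the members' median with diet in Ctrl was -0.570 and -0.567 (-0.033 with limma voom on all libraries). Between genotypes on HFD it was 0.381 and 0.327. In the same settings the genotype values on HFD were 0.693 and 0.565 for Rpl24, 0.415 and 0.557 for Rpl41 and 0.484 and 0.322 for Rpl36. The diet values in Ctrl were -0.561 and -0.476 for Rpl24, -0.519 and -0.401 for Rpl36 and -0.512 and -0.698 for Rpl41. Rpl7l1 between genotypes on HFD was -0.011 without 1, 2 and 4. Without replicates 1 and 2, the Rps27l to Rps27 ratio differed by -0.089 between genotypes on HFD and by 0.218 with diet in Ctrl. With the LIRKO chow pairs summed its genotype difference on chow was 0.635 and no longer passed.

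Values near 0 changed sign with scaling. Between genotypes on HFD, Rps14 was -8.39e-05 over protein-coding genes and -0.00112 with upper quartile scaling, and Rplp0 was -0.00426 with only the 2 groups, -0.0138 over protein-coding genes and -0.0030 with upper quartile scaling. With total counts, which moved the median of all genes to 0.25 in LIRKO with diet, Rpl7l1 was 0.0272 and Rplp0 0.046 there.

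With single libraries left out, the members' median ranged from -0.160 to 0.238 with diet in Ctrl, -0.054 to 0.424 in LIRKO and -0.148 to 0.404 for the interaction. The Rpl22l1 ratio ranged from -0.178 to 0.072 between genotypes on HFD and from -0.765 to -0.516 with diet in Ctrl. The Rps27l ratio ranged from 0.610 to 0.690 between genotypes on chow and from -0.199 to 0.105 with diet in Ctrl. Between genotypes on HFD, Rps27l ranged from -0.161 to 0.380, Rpl7l1 from -0.026 to 0.191, Rps14 from -0.337 to 0.330 and Rplp0 from -0.112 to 0.248. Where an alternative does not itself remove libraries or splits, the cause was not tested.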
